A study of Mus musculus with 6 samples.

Results

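The genes described here encode growth factor and cytokine receptors of the liver: the epidermal growth factor (EGF) receptor Egfr, its relatives Erbb2 and Erbb3, the EGF receptor inhibitor Errfi1, the hepatocyte growth factor (HGF) receptor Met, and 5 receptors of the class I cytokine family, Lifr, Il6st, Il6ra, Osmr and Lepr. These 10 genes were chosen by symbol from the 25690 genes of an RNA sequencing table of mouse liver, because Egfr and Lifr had been higher in FTO knockout than in wild type libraries of this same table. The FPKM values of that contrast therefore chose the list, and they are given as a description that supports nothing by itself. FTO is an enzyme that removes the methyl group of N6-methyladenosine in RNA. The table holds 3 libraries from hepatic tissue labelled wildtype control and 3 labelled hepatic FTO knockout. How the knockout was made, the strain, age, sex and diet of the mice, and whether each library came from its own animal are not given in the sources used here, so the spread between libraries may be technical.

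Receptors of the EGF (ErbB) family are tyrosine kinases of the cell surface that work in pairs: EGFR binds ligands such as EGF and transforming growth factor alpha, ERBB3 binds neuregulins but signals mainly through its partner, and ERBB2 serves as a partner without a known ligand. The interleukin 6 family of cytokines shares the subunit gp130, the product of Il6st, which pairs with the leukemia inhibitory factor receptor (Lifr), the oncostatin M receptor (Osmr) or the interleukin 6 receptor (Il6ra) and signals through JAK kinases and STAT3. In liver, EGFR and MET are known for their part in regeneration, and gp130 for inducing acute phase proteins. Mouse liver is also known as a source of a soluble form of LIFR.

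The promoters of Egfr and Lifr are shown because these were the 2 genes whose levels separated the groups most widely. Each window covers the 250 bases before a RefSeq transcription start on GRCm38, written 5′ to 3′ on the strand of the gene, with CG dinucleotides in capitals. The Egfr window lies at chr11:16751953-16752202 on the plus strand. The first Lifr window lies at chr15:7129322-7129571 and the second, before a start further downstream in the gene, at chr15:7140292-7140541, both on the plus strand.
Egfr: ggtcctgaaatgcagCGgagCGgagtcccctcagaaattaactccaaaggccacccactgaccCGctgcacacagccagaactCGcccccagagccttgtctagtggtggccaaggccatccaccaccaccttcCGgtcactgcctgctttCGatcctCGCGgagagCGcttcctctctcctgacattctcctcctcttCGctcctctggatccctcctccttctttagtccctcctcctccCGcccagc
Lifr, first start: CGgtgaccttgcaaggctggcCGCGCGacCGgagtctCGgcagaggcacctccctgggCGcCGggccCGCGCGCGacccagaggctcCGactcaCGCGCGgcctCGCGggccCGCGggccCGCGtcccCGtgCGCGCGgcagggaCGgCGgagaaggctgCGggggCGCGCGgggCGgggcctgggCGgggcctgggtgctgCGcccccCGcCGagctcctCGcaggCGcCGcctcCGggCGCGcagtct
Lifr, second start: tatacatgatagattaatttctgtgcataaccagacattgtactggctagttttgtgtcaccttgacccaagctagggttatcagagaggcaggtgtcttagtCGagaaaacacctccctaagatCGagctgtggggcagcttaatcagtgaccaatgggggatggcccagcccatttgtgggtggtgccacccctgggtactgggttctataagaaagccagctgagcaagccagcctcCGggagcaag
The first Lifr window held 43 CG dinucleotides and was 82.4% G or C, against a median of 6 CG and 52.4% over 32851 windows of the same length, which put its CG count at the 99.3 percentile. The second Lifr window held 3 CG at 50.8% G or C, and the Egfr window held 11 CG at 60.8%. The motif TTCNNNGAA, the form bound by STAT proteins, was searched; it reads the same on both strands. It was in none of the 12 windows of the 9 members with a RefSeq start here and in 7.02% of all windows.

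On GRCm38, Erbb2 lies at chr11:98412470-98437716 and Erbb3 at chr10:128567523-128589652, Errfi1 at chr4:150853919-150868892 and Met at chr6:17463800-17573980. Il6st lies at chr13:112464070-112510086, Il6ra at chr3:89864059-89913196, Osmr at chr15:6813577-6874969 and Lepr at chr4:101717404-101815352. Erbb3, Il6ra and Osmr are on the minus strand and the others on the plus strand. Antisense genes overlap Egfr (Egfros), Errfi1 (1700045H11Rik) and Il6ra (Gm42809), and whether reads were assigned by strand is not stated, so reads from these partners may be included.

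In the whole table, the FPKM sums of the libraries ran from 843847 to 1076602, and the depth inferred from low values was 34100000 to 42500000 fragments. The Fto gene itself measured 6.67, 6.02 and 6.40 FPKM in the wild type controls, against 1.79, 3.83 and 2.66 FPKM in the knockout, so the groups did not overlap. Wild type replicate 3 stood apart from its group: over 784 genes of 100 to 1000 FPKM, its median absolute log2 difference was 0.42 from replicate 1 and 0.29 from replicate 2, against 0.14 between those 2 libraries and 0.12 to 0.19 between knockout libraries. Of 10405 genes whose mean reached 1 FPKM, limma called 115 higher in the knockout (1.11%) and 172 lower (1.65%), or 2.76% in either direction, at a Benjamini-Hochberg adjusted p under 0.05. Scaling to the sum without mitochondrial transcripts gave 147 higher and 142 lower. Leaving out single libraries gave between 43 genes higher, without knockout replicate 3, and 312, without wild type replicate 3. The 2 groups did not overlap for 24.5% of these genes.

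Egfr was higher in every knockout library. Its FPKM ran 17.9, 15.7, 11.7 over wild type libraries 1 to 3, and 50.1, 32.9, 50.6 over knockout libraries 1 to 3. The groups did not overlap: the lowest knockout library was 1.83 times the highest wild type library. The means were 15.1 ± 3.14 and 44.5 ± 10.1 FPKM (SD, n = 3 each), a ratio of 2.94, and the log2 difference on the log2(FPKM + 1) scale was 1.49 with a standard error of 0.21. Egfr (ENSMUSG00000020122) spans chr11:16752203-16918158 on the plus strand of GRCm38 and has 5 annotated transcripts of 446 to 10208 bases. A coding transcript of 2943 bases ends at 16887923, before the end of the longest form, and a gene-level FPKM does not tell these forms apart.

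No other ErbB receptor was called. Erbb3, the neuregulin receptor with little kinase activity of its own, was at 11.2, 9.06 and 5.63 FPKM in the controls, against 10.9, 10.5 and 12.1 FPKM in knockout libraries. Wild type replicate 3 was low and the other 5 libraries lay close together, and the groups overlapped. The log2 difference of Erbb3 was 0.38 ± 0.21 (SE; limma adjusted p = 0.402), and it was 0.13 without wild type replicate 3. Erbb2, the partner receptor without a known ligand, was under the 1 FPKM minimum and was not tested. Its FPKM was 0.0193, 0.0644 and 0.123 in wild type and 0.322, 0.0863 and 0.0782 in knockout libraries, which corresponds to about 3 to 56 fragments and leaves the groups overlapping. Erbb4, the remaining family member and no member of the list, was also too low to test, at 0.373, 0.329 and 0.295 FPKM in the controls, against 0.105, 0.231 and 0.153 FPKM in knockout libraries.

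Because FPKM is scaled by transcript length, the 4 ErbB receptors can be set side by side within a library. Egfr made up 60.7%, 62.5% and 66.0% of their summed FPKM in wild type libraries and 81.6%, 75.3% and 80.4% in knockout libraries. Erbb3 held nearly all of the rest, at 35.2% ± 3.27 in wild type and 20.3% ± 3.25 in knockout (SD, n = 3 each). The sum of the 4 receptors went from 29.6, 25.2 and 17.8 FPKM to 61.5, 43.6 and 62.9 FPKM. Without Egfr the sum was 11.6, 9.45 and 6.04 FPKM in the controls, against 11.3, 10.8 and 12.3 FPKM in knockout libraries, ranges that overlap, so the larger sum was made up mostly of Egfr.

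Errfi1, which encodes an inhibitor that binds the EGFR kinase, was lower in each knockout library. Its FPKM was 340, 326 and 312 in wild type and 210, 284 and 273 in knockout libraries. The groups did not overlap, although the lowest wild type library was only 1.10 times the highest knockout library. The log2 difference of Errfi1 was -0.36 ± 0.15 (SE) and did not pass the threshold (limma adjusted p = 0.244). Errfi1 was the most abundant of the 10 genes in both groups. The FPKM ratio of Errfi1 to Egfr was 19.0, 20.7 and 26.6 in wild type and 4.19, 8.64 and 5.40 in knockout libraries.

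**Figure D1:**
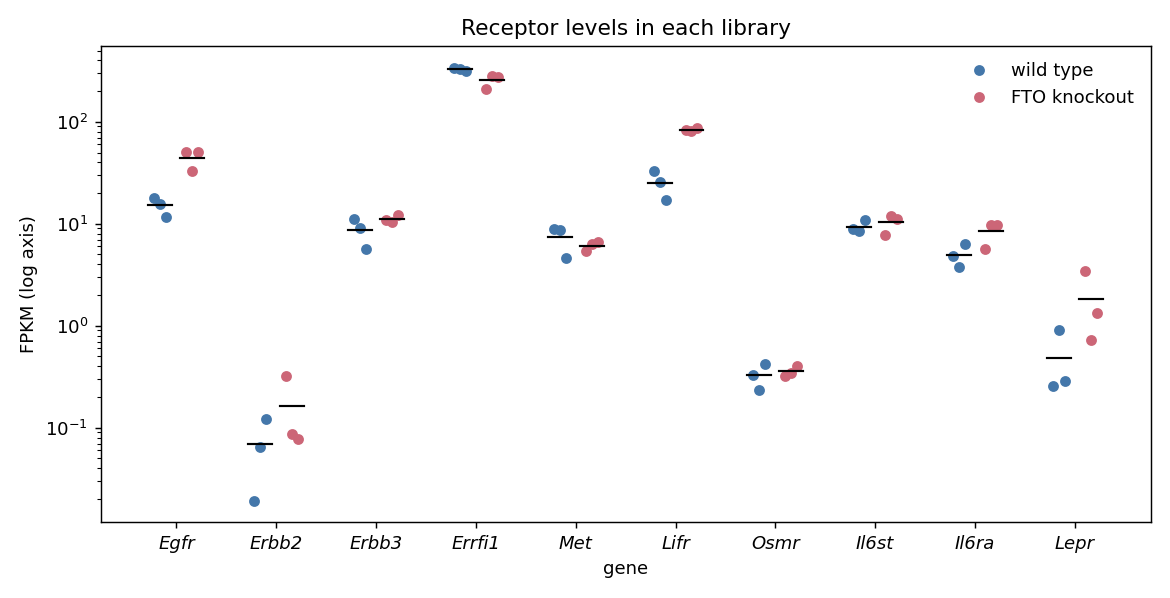
FPKM of each of the 10 genes in the 3 wild type and 3 FTO knockout libraries (log scale; points are libraries, bars are group means). For Egfr, Lifr and Errfi1 the groups do not overlap; for the other 7 genes they do.

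Among the ligands of the ErbB receptors, few reached the minimum. Of 11 ErbB ligands only Tgfa and Nrg4 reached a mean of 1 FPKM, and neither passed the test. Tgfa, transforming growth factor alpha, was at 1.84 ± 0.497 FPKM in the controls, against 1.90 ± 0.0421 FPKM in knockout (SD, n = 3 each; limma adjusted p = 0.914). Nrg4, the neuregulin 4 gene, was at 4.93, 4.94 and 14.6 FPKM in the controls, against 4.15, 10.4 and 4.88 FPKM in knockout libraries, with 1 high library in each group (limma adjusted p = 0.841). Egf was at most 0.108 FPKM in any library. Btc, also under the minimum on average, was at 0.683, 1.07 and 0.665 FPKM in the controls. It was lower in knockout libraries, at 0.357, 0.549 and 0.438 FPKM, without overlap. The other untested ligands overlapped. Groups did not overlap for 24.5% of all tested genes, and Btc was not tested.

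Downstream of the receptor kinases, no gene passed the adjusted threshold. Of 21 transducers from Grb2 to Plcg1, 20 were tested by limma, and none was called, with 1 lower and none higher at an unadjusted p under 0.05; their median log2 difference was -0.02, against -0.00 over all 10405 genes. Of 21 genes of receptor feedback and turnover, such as the Cbl ubiquitin ligases and the Sprouty inhibitors, limma tested 13 and called none, with none at an unadjusted p under 0.05 and a median of 0.03. Of 18 genes that ERK signalling induces, 6 were tested and none was called by limma or at an unadjusted p under 0.05, with a median of -0.06. The other 12 were under the minimum. Among them, Spry4 (1.19 and 0.712 FPKM on average), Etv5 (0.571 and 0.358 FPKM) and Etv4 (near 0) were lower in knockout without overlap. The others of these 12 overlapped. Groups did not overlap for 24.5% of all tested genes, and these low genes were not tested. All 4 genes of ectodomain shedding, the proteases Adam10 and Adam17 with Rhbdf1 and Rhbdf2, were tested and none was called by limma. Only Rhbdf1 was lower at an unadjusted p under 0.05, and the median was -0.08.

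Met, the receptor of HGF, overlapped between groups, at 8.85, 8.65 and 4.62 FPKM in the controls, against 5.38, 6.28 and 6.55 FPKM in knockout libraries. Wild type replicate 3 was the lowest of the 6 libraries and the other wild type libraries were the highest. The log2 difference of Met was -0.20 ± 0.22 (SE; limma adjusted p = 0.683), and without wild type replicate 3 it was -0.47 (limma adjusted p = 0.0708). The ratio of Egfr to Met was 2.03, 1.82 and 2.54 in wild type and 9.32, 5.24 and 7.72 in knockout libraries.

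Of 8 genes for HGF and its activation, 5 were tested and 1, Spint2, was called. Spint2, which encodes an inhibitor of the proteases that activate HGF, rose from 43.3, 43.7 and 46.5 FPKM to 63.5, 63.9 and 62.9 FPKM. That is 1.42-fold, with narrow spread in both groups (log2 difference 0.50 ± 0.10, SE; limma adjusted p = 0.0487), but the call was lost without any 1 library other than wild type replicate 3 (limma adjusted p of 0.106 to 0.221). Hgf was just under the minimum, at 0.939 ± 0.303 and 0.970 ± 0.386 FPKM (SD, n = 3 each). These activating proteases did not pass the test: Hgfac was at 67.3 and 56.5 FPKM on average (limma adjusted p = 0.412) and Hpn, the hepsin gene, at 213 and 216 FPKM (limma adjusted p = 0.950). Plg, the plasminogen gene, was at 503 and 509 FPKM (limma adjusted p = 0.946). Mst1, which encodes a liver-made relative of HGF, was at 57.6 and 64.3 FPKM (limma adjusted p = 0.505), and its receptor Mst1r was at most 0.0430 FPKM.

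Lifr had the widest separation of the 10 genes. Its FPKM ran 32.8, 25.7, 17.2 over the wild type libraries, and 83.8, 80.3, 86.3 over the knockout libraries. The lowest knockout library was 2.45 times the highest wild type library, and the knockout libraries lay closer together than the wild type ones. The means were 25.2 ± 7.83 and 83.5 ± 2.99 FPKM (SD, n = 3 each), a ratio of 3.31, with a log2 difference of 1.73 and a standard error of 0.21. Lifr (ENSMUSG00000054263) spans chr15:7090614-7197489 on the plus strand of GRCm38. It has 8 annotated transcripts of 299 to 9655 bases, and coding forms of 2844 and 2489 bases end at 7185343 and 7185346, before the ends of the longer forms. The values do not show which of these forms was present.

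With Egfr, Lifr made up the 2 genes called higher among the 8 members tested; none was called lower and 6 were not called. Because the list was chosen on this contrast, nothing is read from that share against the 1.11% of all genes called higher. Of the same 8 tested members, 3 had groups that did not overlap, where the share over all tested genes was 24.5%. Egfr and Lifr are 2 of these 3 and chose the list, so nothing is read from this share either.

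Il6st, the shared gp130 subunit with which LIFR pairs, was not called. Il6st was at 8.85, 8.47 and 10.8 FPKM in the controls, against 7.81, 11.9 and 11.2 FPKM in knockout libraries, with the groups overlapping and a log2 difference of 0.11 ± 0.17 (SE; limma adjusted p = 0.782). The ratio of Lifr to Il6st was 3.71, 3.03 and 1.59 in wild type and 10.7, 6.73 and 7.68 in knockout libraries. Il6ra, the subunit that binds interleukin 6, was at 4.88, 3.81 and 6.27 FPKM in the controls, against 5.71, 9.81 and 9.78 FPKM in knockout libraries. Knockout replicate 1 lay below wild type replicate 3, and the difference did not pass the threshold (log2 difference 0.64 ± 0.23, SE; limma adjusted p = 0.184). Within each library, the ratio of Il6ra to Il6st was 0.552, 0.449 and 0.581 in wild type and 0.731, 0.822 and 0.870 in knockout, without overlap.

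Osmr, the oncostatin M receptor subunit, was under the minimum in every library. Its FPKM was 0.329, 0.234 and 0.422 in wild type and 0.324, 0.345 and 0.405 in knockout libraries, about 47 to 95 fragments each, and the groups overlapped. Osmr is the neighbour of Lifr on chromosome 15, 216 kb away on the other strand with no coding gene between them. Lepr, the leptin receptor, was at 0.256, 0.919 and 0.288 FPKM in the controls, against 3.44, 0.720 and 1.34 FPKM in knockout libraries. Knockout replicate 1 was far above the rest and knockout replicate 2 lay within the wild type range, so the ratio of means of 3.75 rested largely on 1 library (log2 difference 0.84 ± 0.34, SE; limma adjusted p = 0.236). Without knockout replicate 1, Lepr fell under the minimum and was not tested. Leprot, a gene that lies before Lepr on the same strand of chromosome 4, was at 7.12 and 7.87 FPKM (limma adjusted p = 0.646).

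Over 8 receptors of this family, the 5 above with Il11ra1, Cntfr and Il27ra, Lifr held 57.5%, 50.9% and 38.5% of the summed FPKM in the controls, against 75.1%, 70.0% and 71.3% in knockout libraries. The sum without Lifr was 24.2, 24.7 and 27.4 FPKM in the controls, against 27.8, 34.5 and 34.8 FPKM in knockout libraries, which narrowly did not overlap. Il11ra1, the interleukin 11 receptor, did not pass the test, at 9.38 and 10.6 FPKM (limma adjusted p = 0.527). Cntfr and Il27ra were under the minimum, at 0.633 and 0.268 FPKM in the controls, against 0.569 and 0.290 FPKM in knockout.

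**Figure D2:**
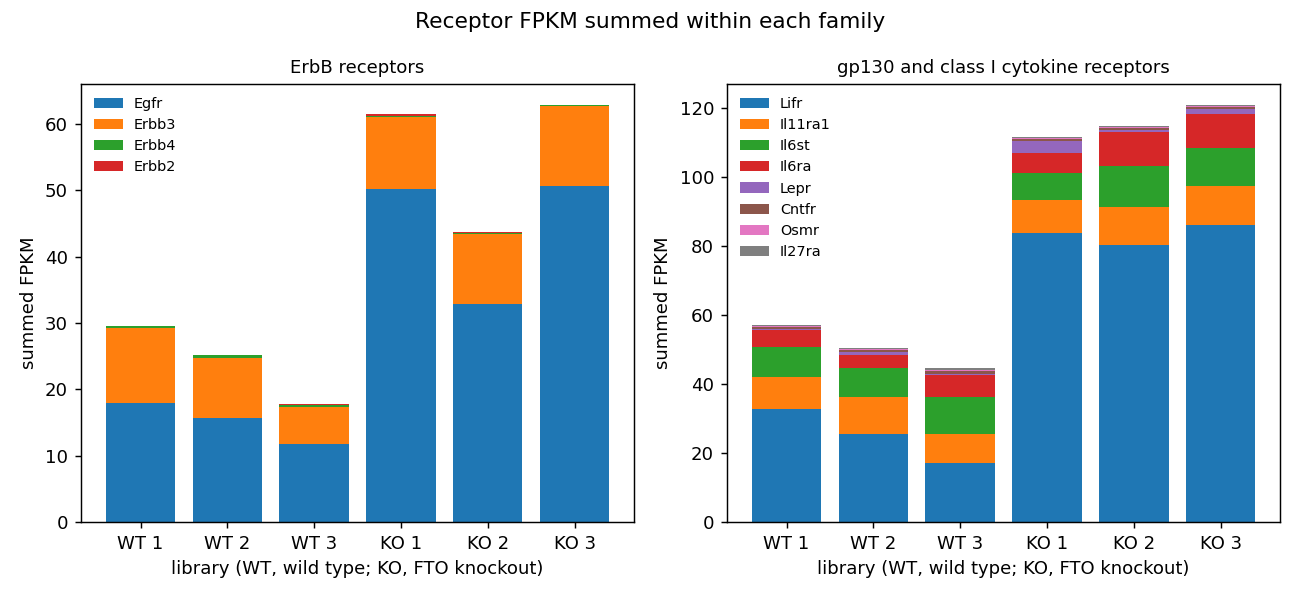
Summed FPKM of the 4 ErbB receptors and of 8 class I cytokine receptors in each of the 6 libraries, stacked by gene (bars start at 0). The Egfr share is 60.7% to 66.0% in the controls and 75.3% to 81.6% in knockout libraries, and the Lifr share is 38.5% to 57.5% and 70.0% to 75.1%.

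By level, the wild type order was Errfi1 first, then Lifr and Egfr, whose ranges overlapped, then Il6st, Erbb3, Met and Il6ra, each overlapping the next, then Lepr and Osmr, which overlapped, and Erbb2 last. In the knockout, Errfi1, Lifr and Egfr stood in that order without overlap. Erbb3, Il6st, Il6ra and Met followed with overlapping neighbours, then Lepr, Osmr and Erbb2. The ratio of Lifr to Egfr was 1.46 to 1.83 in wild type and 1.67 to 2.44 in knockout libraries, ranges that overlap.

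Among 11 ligands of the gp130 and leptin receptors, 2 were tested and 1 was called. Ctf1, which encodes cardiotrophin 1, a cytokine that signals through LIFR and gp130, fell from 3.06, 2.43 and 3.31 FPKM to 1.46, 1.78 and 1.48 FPKM. The groups did not overlap and the wild type mean was 1.87 times the knockout mean (log2 difference -0.61 ± 0.12, SE; limma adjusted p = 0.0479), but the call was lost without any 1 of the 6 libraries (limma adjusted p of 0.0590 to 0.168). Cntf, the ciliary neurotrophic factor gene, was at 0.849, 0.805 and 0.404 FPKM in the controls, against 2.33, 0.896 and 0.945 FPKM in knockout libraries. It did not pass (limma adjusted p = 0.340). Only knockout replicate 1 was above 1 FPKM, so Cntf met the minimum for testing through that library. Il6, Lif and Osm themselves were at or near 0 in every library, and none of these 3 genes was tested.

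Of the 7 JAK and STAT transducers, all were tested and none was called by limma, with 1 lower at an unadjusted p under 0.05 and a median log2 difference of -0.12. Stat3, the main STAT of gp130, was at 11.7 ± 1.71 FPKM in the controls, against 16.3 ± 4.42 FPKM in knockout (SD, n = 3 each; limma adjusted p = 0.285). Of 10 JAK and STAT feedback genes, 9 were tested and Socs2 was called. Socs2, an inhibitor of cytokine receptor signalling best known as a feedback gene of growth hormone and STAT5, rose from 1.75, 1.51 and 3.10 FPKM to 5.65, 6.76 and 9.50 FPKM, or 3.45-fold (log2 difference 1.42 ± 0.23, SE; limma adjusted p = 0.0212). The Socs2 call was lost when wild type library 1 or 2, or knockout library 2 or 3, was left out (limma adjusted p of 0.0504 to 0.0803). Socs3, the feedback inhibitor that binds gp130, was at 2.53, 1.51 and 1.13 FPKM in the controls, against 5.15, 3.26 and 4.82 FPKM in knockout libraries; the groups did not overlap but the difference did not pass (limma adjusted p = 0.0560), except with a robust fit or without wild type replicate 1 (limma adjusted p of 0.0459 and 0.0214).

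Of 24 liver genes known as gp130 and STAT3 targets, 22 were tested and limma called none. Their median log2 difference was 0.40, against -0.00 over all genes, with 20 above 0 and 2 below. At an unadjusted p under 0.05, 7 of the 22 were higher and 1 was lower, where 8.65% of all tested genes were higher and 18.7% differed in either direction at that level. Fga, Fgb and Fgg, which encode the fibrinogen chains, were all among these 7. Other targets differed less, with log2 differences of 0.05 for Saa4 and 0.12 for Bcl3. Fgg and Lbp had the lowest limma p of the list. Fgg, the fibrinogen gamma chain, was at 1545 ± 167 and 2403 ± 538 FPKM (SD, n = 3 each, limma adjusted p = 0.135). Lbp, the lipopolysaccharide binding protein, was at 48.3 ± 6.66 and 88.3 ± 28.7 FPKM (SD, n = 3 each; limma adjusted p = 0.143). The 1 lower gene was Cebpb, at 56.8 ± 6.06 and 44.4 ± 1.25 FPKM (SD, n = 3 each, limma adjusted p = 0.184). Over the 11 lists of ligands, other receptors, transducers, feedback genes and targets together, 91 genes were tested and 3 were called, Socs2 and Spint2 higher and Ctf1 lower. That is 3.30%, near the 2.76% of all tested genes called in either direction.

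**Figure D3:**
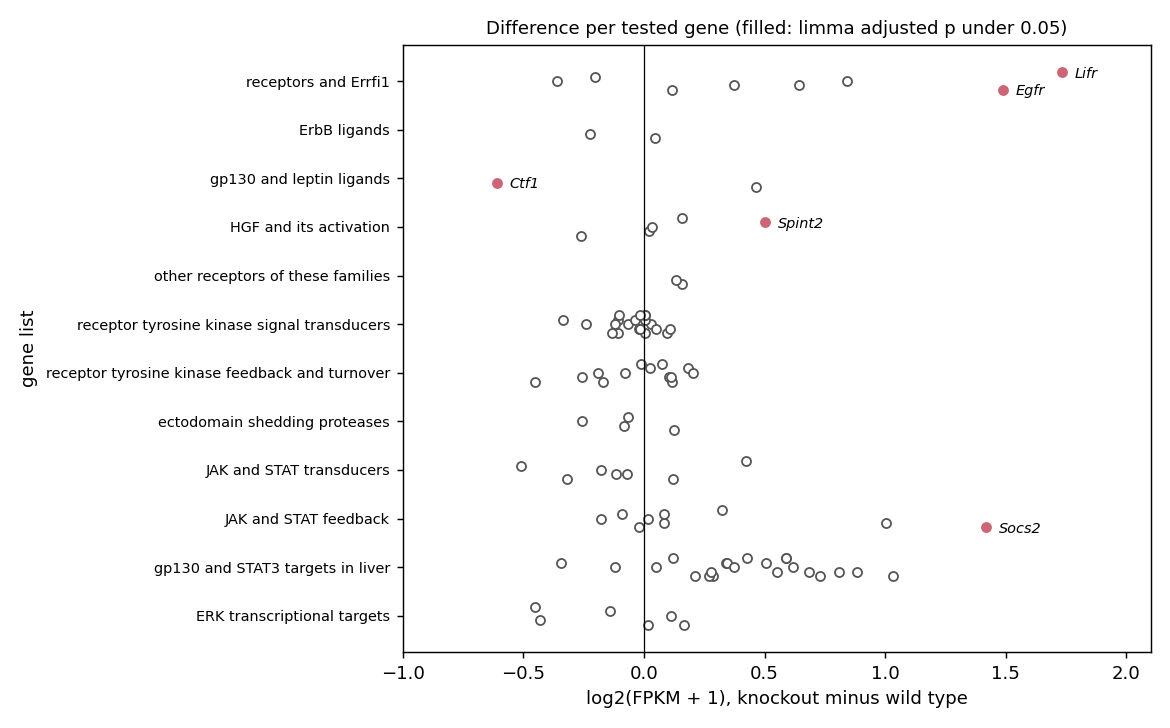
Log2 difference, knockout minus wild type, of each tested gene by list, on the log2(FPKM + 1) scale; filled points passed an adjusted p of 0.05. Outside the receptors, only Socs2, Spint2 and Ctf1 passed; a gene on more than 1 list is drawn in each.

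Leaving out predicted gene models, the genes whose profiles over the 6 libraries lay nearest to Egfr were C6, Serpine2, Adh6-ps1, Igfbp2 and Mup4, with root mean square differences of 0.09, 0.15, 0.17, 0.20 and 0.20 between centred log2(FPKM + 1) values. C6, a component of the complement membrane attack complex, had means of 29.6 ± 6.98 and 95.3 ± 24.6 FPKM (SD, n = 3 each). It was picked for its likeness to Egfr, so the low value that both have in knockout replicate 2 is no added result. Nearest to Lifr were Hsd3b4, Capn8, C8b, Cyp7b1 and Serpine2, at 0.17, 0.18, 0.20, 0.21 and 0.21. Cyp7b1, the oxysterol 7-alpha-hydroxylase, had means of 69.4 ± 24.3 and 254 ± 57.7 FPKM (SD, n = 3 each). Serpine2, a secreted protease inhibitor, was near both receptors, at 4.74 ± 1.88 and 13.8 ± 2.55 FPKM (SD, n = 3 each). Lifr ranked 11 among all tested genes by likeness to Egfr, and Egfr ranked 10 by likeness to Lifr. Both receptors chose the list because they rose in these same libraries, so nothing is read from these ranks. The Mup and Hsd3b genes have near-identical copies, and their values are uncertain.

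GGACT, a common form of the sequence in which N6-methyladenosine is placed, was counted on the sense strand of the longest annotated transcript of each gene. It occurred 1.18 times per kilobase in Egfr and 0.83 times in Lifr, against a median of 1.02 over 10309 tested genes, with 10% of genes under 0.23 and 10% over 2.06. Il6ra had the highest density of the 10 genes, 1.74 per kilobase, and Errfi1 the lowest, 0.33. A count of letters does not show methylation, which was not measured in these libraries.

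The receptors are made by different liver cells, and in bulk tissue fewer cells of a type and less RNA per cell cannot be told apart. Hepatocyte markers other than Alb were present at high levels in every library, and 1 of 9 tested, Ahsg, was called higher. The call was lost without any 1 library other than wild type replicate 3. It was also lost with quantile normalization, a robust fit, no filter on low values, or scaling to the sum without mitochondrial transcripts. At an unadjusted limma p under 0.05, 4 of the 9 were higher and none lower, where 8.65% of all tested genes were higher. Alb, which is listed at 0 in 1 library of each group, is 1 of these 9, with a standard error of 5.01. It was left out of their sum. The sum of the other 8 was 16269, 14672 and 18280 FPKM in the controls, against 21242, 20876 and 21366 FPKM in knockout libraries. These sums did not overlap, and the ratio of means was 1.29. The sum weighs abundant genes most: Apoa1 averaged 4634 and 7213 FPKM, and Ahsg 2908 and 4548 FPKM. Ratios of means were 1.07 for Ttr, 1.02 for Ass1 and 0.84 for Apob. The knockout mean was higher for 7 of the 8. Of 10 Kupffer cell and macrophage markers, none was called by limma and 4 were higher at an unadjusted p under 0.05, while all 10 had log2 differences above 0; without wild type replicate 3 limma called 6 of them higher, and without knockout replicate 2 it called 1. Their sum was 61.0, 103 and 201 FPKM in the controls, against 216, 163 and 283 FPKM in knockout libraries. The sum of wild type replicate 3 lay above that of knockout replicate 2 and below those of knockout replicates 1 and 3. Sinusoidal endothelial markers summed to 88.6, 107 and 196 FPKM in the controls, against 113, 136 and 151 FPKM in knockout libraries, and 10 of 10 were tested with none called by limma and 1 lower at an unadjusted p under 0.05. The cholangiocyte markers Krt19, Krt7, Epcam, Sox9, Cftr and Cldn7, the lymphocyte markers Cd3e, Cd4, Cd8a, Cd79a, Cd79b and Ms4a1, and 4 of 4 adipocyte markers were under 1 FPKM in all libraries. Stellate cell and fibroblast markers summed to 78.8, 88.3 and 115 FPKM in the controls, against 73.8, 99.8 and 107 FPKM in knockout libraries. Of these 10 markers, 5 were tested, with none called by limma and none at an unadjusted p under 0.05. The part of hepatocyte and Kupffer cell markers in the receptor values was not tested.

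Wild type replicate 3 divided the receptors. It was the lowest of all 6 libraries for Egfr, Lifr, Erbb3 and Met, against 19.9% of tested genes for which it was lowest. It was the highest wild type library for Il6st, Il6ra, Osmr and Erbb2. Without it the log2 difference of Egfr was 1.33 and that of Lifr 1.49, both still past the threshold. Calls were lost in other settings: Egfr was not called without knockout replicate 1, without knockout replicate 3 or with no filter on low values, and Lifr was not called without knockout replicate 3.

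**Figure D4:**
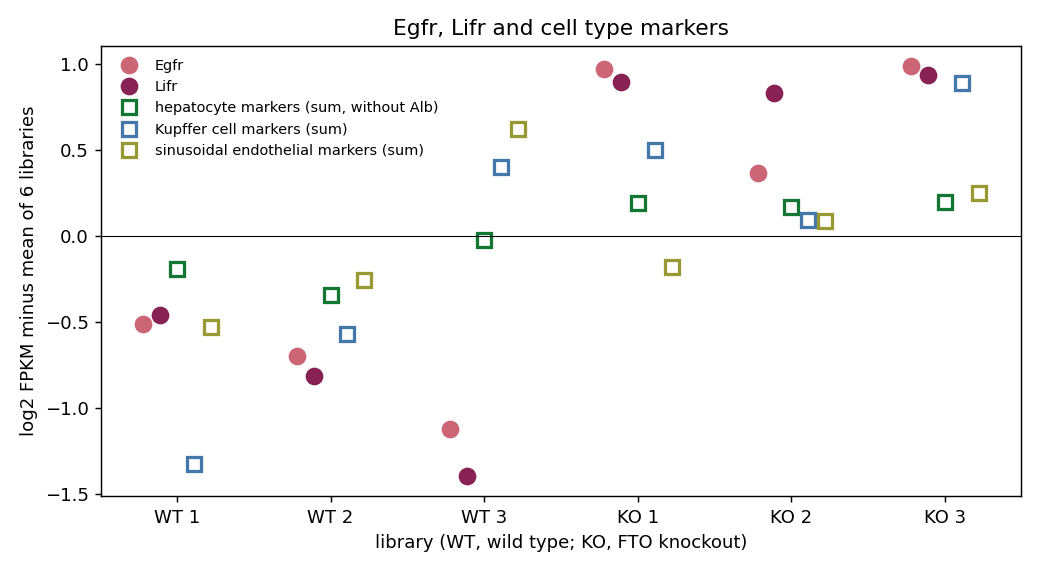
Egfr, Lifr (filled) and summed cell type markers (open) in each library, as log2 FPKM minus its mean over the 6 libraries; points are shifted sideways for legibility. Kupffer cell markers sum to 61.0 to 201 FPKM over wild type and 163 to 283 FPKM over knockout libraries, ranges that overlap. The part of cell type markers in the receptor values was not tested.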

How the data were processed

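RNA was measured in 3 wild type and 3 FTO knockout libraries of mouse hepatic tissue, made from Trizol-extracted, DNase-treated RNA with Illumina kits, per the labels' protocols. The deposited table gives FPKM (fragments scaled by transcript length and library size) for 25690 Ensembl genes. TopHat2 2.1.0, HTSeq, Cufflinks 2.2.1 and mm10 are named without roles, per the submitters' processing notes, with no annotation release. More than 6 significant digits are carried by 50.7% of the deposited FPKM values above 0, as averages of Cufflinks values would. What may have been averaged, how reads that match several genes were assigned, and whether strand was used are not given in the sources used here.

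GENCODE M21 (GRCm38) gave symbols and coordinates for 24807 identifiers. Promoters came from a RefSeq table of GRCm38.p6. No row of the table was matched to Cebpd or Tf, which are not analysed here. Genes averaging 1 FPKM or more were tested, two-sided, with limma 3.58.1 in R 4.3.3 (lmFit, eBayes with trend) on log2(FPKM + 1), which understates changes of low genes. The fit covered 10405 genes, and calls needed a Benjamini-Hochberg adjusted p under 0.05. Replicates are numbered in sample order, and the numbers pair nothing. Depth was inferred from low values of genes with 1 transcript, within a range set with the values known, and fragment numbers derived from it are approximate.

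The members and lists were chosen with earlier results of these data known. Named are the members, Fto, called list genes, ligands at 1 FPKM or more, remaining family receptors, the 5 nearest profiles of Egfr and Lifr and markers near 0. Hgf, Egf, Il6, Lif, Osm, Stat3, Socs3, Fgg, Lbp, Cebpb, Spry4, Etv4, Etv5, Adam10, Adam17, Rhbdf1 and Rhbdf2 were named after their values were seen. So were Btc, Fga, Fgb, Saa4, Bcl3, Apoa1, Ttr, Ass1 and Apob. The 13 alternatives comprised other scalings, filters, pseudocounts, a robust fit, removal of a length trend and leaving out each library.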

Additional observations from a re-analysis of the deposited data

How the results depend on the processing

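No direction among the 8 tested members turned under 13 alternatives; Lepr had 12, since it fell under the minimum without knockout replicate 1. The Egfr call was lost in 3 of 13 and the Lifr call in 1 of 13. Ctf1 lost its call in 8, Spint2 in 7 and Socs2 in 5, with limma adjusted p up to 0.168, 0.221 and 0.0803. Socs3 passed in 2. The median of all genes moved by less than 0.1 under every scaling.

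With no filter on low values, Egfr kept its log2 difference of 1.49 but not its call. There 1 member and 1 list gene were called higher, 0 list genes lower (limma; 3 members higher and 8 list genes lower at an unadjusted p under 0.05), 93 genes lower in all, and the median over members was 0.25. Scaling to the sum without mitochondrial transcripts left 1 list gene higher and 0 lower (limma; 1 lower at an unadjusted p under 0.05), and called 147 genes higher and 142 lower in all, against 115 and 172. A pseudocount of 0.1 left 1 list gene higher. Quantile normalization called 180 genes higher, and removing the length trend called 218 higher and 295 lower. The causes were not tested.

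Leaving out each library in turn gave 43 (without knockout replicate 3) to 312 (without wild type replicate 3) genes higher and 49 to 240 lower, with the same libraries at the ends. It gave 0 to 2 members higher, 0 to 2 list genes higher and 0 to 1 lower. Without knockout replicate 3, limma called 0 members, with 2 higher at an unadjusted p under 0.05. Egfr ranged from 1.33 to 1.69 and Lifr from 1.49 to 1.94. No paired analysis was possible because the labels give no replicate numbers that groups share. Depth limits Erbb2, at about 3 fragments in its lowest library.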
